A study of Mus musculus with 3 samples.

Results

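The interval chr4:145000000-148000000 (GRCm38) of the mouse genome holds a cluster of KRAB zinc finger genes between stretches of ordinary protein-coding genes. All SNPs listed there were taken from the per-library files, which gave 717 SNPs in 78 genes, of 452304 SNPs and 30212 genes in all, and no position was listed more than once. The interval was chosen with the allelic values of these libraries in view, so the allelic shares below are a description and none of them was tested. Of the genes, 19 were zinc finger genes with 184 SNPs, 9 were edge genes with 220 SNPs, 35 were processed pseudogenes with 186 SNPs and 15 were other genes with 127 SNPs.

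Whole exomes were sequenced from blood cells that grew from transplanted HSCs (hematopoietic stem cells) in 3 irradiated recipients, with 1 library per animal. The cells are female and F1, of a B6 mother by a CAST father, and each SNP between these strains can tell the maternal from the paternal chromosome. E6.2 is a polyclonal animal that received 50 HSCs, and its library was made from 58000 B220+IgM+ B cells, of spleen by the labels and of bone marrow by the study's methods. E6.43 and E15.10 are monoclonal: each animal received 1 HSC, and 250000 and 177000 CD4+CD8- T cells went into their libraries. Donor animal 6 gave the HSCs of both E6 recipients, and donor animal 15 that of E15.10. With 1 library per animal there is no replicate error, and clonality cannot be told apart from cell type. Allelic imbalance (AI) is the share of maternal B6 counts among all allelic counts, and the intervals given with it are 95% Wilson intervals, which cover counting error only. Neighbouring SNPs share reads, so these intervals are too narrow. The libraries held between 10863972 and 19471576 allelic counts, of which the interval took 24118 in E6.2, 15669 for E6.43 and 11053 in E15.10, or 0.124%, 0.120% and 0.102%.

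KRAB zinc finger proteins bind DNA through arrays of C2H2 zinc fingers, and their KRAB box recruits the corepressor TRIM28, which brings silencing chromatin marks to the bound site. Many of them silence transposable elements. Their genes multiply by tandem duplication, so that a cluster holds many similar copies, and copies can differ between strains in number and sequence. In such a family a short read may match several genes, which bears on how an allelic count is made.

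All 20 zinc finger genes annotated in the interval encoded the core of a KRAB box, and a median of 11.5 C2H2 fingers was found in the translated proteins, with a range of 2 to 20. The first 60 residues were identical to those of another gene in 12 of these 20 genes. Rex2, Zfp600, Zfp978, Zfp979 and Zfp980 formed a group of 5 with the same start, Zfp534, Zfp986, Zfp987 and Zfp988 a group of 4, and Zfp991, Zfp992 and Zfp993 a group of 3. The other genes each had a start of their own, so that 11 different starts were found. Zfp993 had no listed SNP.

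The density of listed SNPs was uneven over the zinc finger genes. They held 2.98 SNPs per kb of exon, against 4.21 in the edge genes, 4.04 in the processed pseudogenes, 4.13 in autosomal protein-coding genes elsewhere and 4.28 in Zfp genes elsewhere. Zfp982 reached 14.1 SNPs per kb, Zfp981 11.4 and Zfp933 10.8, whereas 7 of the 19 genes held under 1 SNP per kb, with Zfp990 lowest at 0.286. One of the 9 edge genes, Mfn2, was also under 1 SNP per kb.

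The sequences that carry the largest allelic counts are shown on the coding strand of the GRCm38 reference (NCBI RefSeq assembly), 5′ to 3′, with each listed SNP position in capitals. The capital is the reference base, which is the B6 base; the CAST base is not given in the files used here. The first pair shows the same place in Zfp981 and Zfp982, which have opposite allelic shares. In both genes the SNP lies in codon 17, where the core of the KRAB box begins, and 51 of the 61 bases are identical. The Zfp981 window is chr4:146535411-146535471 and the Zfp982 window chr4:147510743-147510803, both on the plus strand.
Zfp981: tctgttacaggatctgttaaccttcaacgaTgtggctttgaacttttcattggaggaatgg
Zfp982: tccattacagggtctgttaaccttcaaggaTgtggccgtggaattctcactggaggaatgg

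The next exon of Zfp981 carries the SNPs with the highest B6 shares of the zinc finger genes. Its window at chr4:146536755-146536840 holds 5 of them.
Zfp981: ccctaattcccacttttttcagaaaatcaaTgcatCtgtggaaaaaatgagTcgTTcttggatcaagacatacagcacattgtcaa

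Zfp992 and Zfp933 each have a pair of well-covered coding SNPs close together. The Zfp992 window is chr4:146466164-146466229 on the plus strand, with the SNPs in codons 124 and 126. The Zfp933 window is chr4:147828397-147828485 on the minus strand, with the SNPs in codons 49 and 58.
Zfp992: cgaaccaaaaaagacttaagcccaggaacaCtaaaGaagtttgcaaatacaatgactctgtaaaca
Zfp933: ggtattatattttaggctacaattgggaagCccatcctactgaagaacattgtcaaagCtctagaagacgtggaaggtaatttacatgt

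Zfp989 had 1 SNP with counts, in codon 21 at chr4:146986665. The following lines set its window, chr4:146986635-146986695, beside the same stretch of other genes of the cluster, with the SNP position and every base that differs from Zfp989 in capitals. The reference base of Zfp989 at the SNP is not that of Zfp986 (chr4:145896645-145896705), Zfp990 (chr4:145534817-145534877), Zfp534 (chr4:147678282-147678342, minus strand) or Zfp992 (chr4:146464405-146464465).
Zfp989: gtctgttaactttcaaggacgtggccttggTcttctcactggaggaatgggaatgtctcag
Zfp986: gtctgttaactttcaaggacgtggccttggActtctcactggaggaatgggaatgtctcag
Zfp534: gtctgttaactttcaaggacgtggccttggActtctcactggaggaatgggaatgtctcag
Zfp990: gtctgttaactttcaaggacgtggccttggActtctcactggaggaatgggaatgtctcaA
Zfp992: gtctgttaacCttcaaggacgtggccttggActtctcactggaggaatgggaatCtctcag

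A window of 151 bases around the Zfp989 SNP had 14 near copies on chromosome 4, all inside the interval, where a near copy is a match of at least 140 aligned bases and 95% identity. Of these, 13 carry another base than Zfp989 at the SNP and 1 carries the same base. The matching copy lies at chr4:146832678-146832738 on the minus strand and is identical over all 151 bases. Only Gm26573 is annotated there, a gene that also spans copies in Zfp992, Zfp993 and Zfp989. Around the first Zfp992 SNP, 10 near copies were found on chromosome 4, and all 10 carry the same base as Zfp992 there. The copy in Zfp991 is identical over all 151 bases, at the second Zfp992 SNP as well. For contrast, the coding SNP with most counts in the edge genes other than Fv1 lies in Tnfrsf8 at chr4:145293120, and its window at chr4:145293090-145293150 (minus strand) had no near copy.
Tnfrsf8: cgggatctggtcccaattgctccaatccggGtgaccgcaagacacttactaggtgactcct

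The edge genes had balanced shares in all libraries. Over their SNPs AI was 0.540 (0.531 to 0.550) in E6.2, 0.535 (0.523 to 0.547) for E6.43 and 0.547 (0.535 to 0.558) in E15.10, and over all autosomal genes it was 0.541 in each library. Vps13d, a lipid transfer protein of mitochondria, had the most counts of them, with AI of 0.531 of 3976 counts in E6.2, 0.541 of 2378 for E6.43 and 0.552 of 1655 in E15.10. Tnfrsf1b, a receptor of tumour necrosis factor, had 0.524, 0.528 and 0.592. Its E15.10 interval of 0.562 to 0.622 lay just above both others, which ended at 0.552 and 0.560. Over all autosomal genes, 31.9% had intervals that did not overlap between at least 1 pair of libraries.

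The remaining edge genes stayed close to these values. Tnfrsf8, another receptor of that family, had AI of 0.583, 0.587 and 0.563. Miip had 0.538, 0.508 and 0.517, and Fv1, which restricts murine leukemia viruses, had 0.567, 0.522 and 0.540. Mfn2, a mitochondrial fusion protein with 1 SNP, had 0.446, 0.546 and 0.530. Plod1, a lysyl hydroxylase of collagen, had 0.468, 0.493 and 0.516. The gene 2510039O18Rik had 0.581, 0.515 and 0.533, and Nppb, which encodes a natriuretic peptide, had 0.639, 0.587 and 0.517. None of the 9 genes was under 0.25 or over 0.75 in any library.

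The ends of the interval cut through these balanced stretches. Vps13d spans the left end. Its last SNP outside had AI of 0.486 (E6.2), 0.597 (E6.43) and 0.529 (E15.10), and its first SNP inside had 0.491, 0.739 and 0.614. At the right end, the last SNP inside, in Nppb, had 0.647, 0.548 and 0.521, and the first SNP outside, in Nppa, had 0.457, 0.488 and 0.679.

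The zinc finger genes had shares on both sides of the balance, while their sum came close to it. Over all their SNPs AI was 0.441 (0.426 to 0.455) of 4424 counts in E6.2, 0.501 (0.483 to 0.519) of 2847 for E6.43 and 0.499 (0.468 to 0.530) of 968 in E15.10. These sums hide the genes beneath them, since Zfp981 alone gave 1697 counts in E6.2, 1300 for E6.43 and 412 in E15.10. Without Zfp981, AI was 0.198, 0.176 and 0.234.

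**Figure D1:**
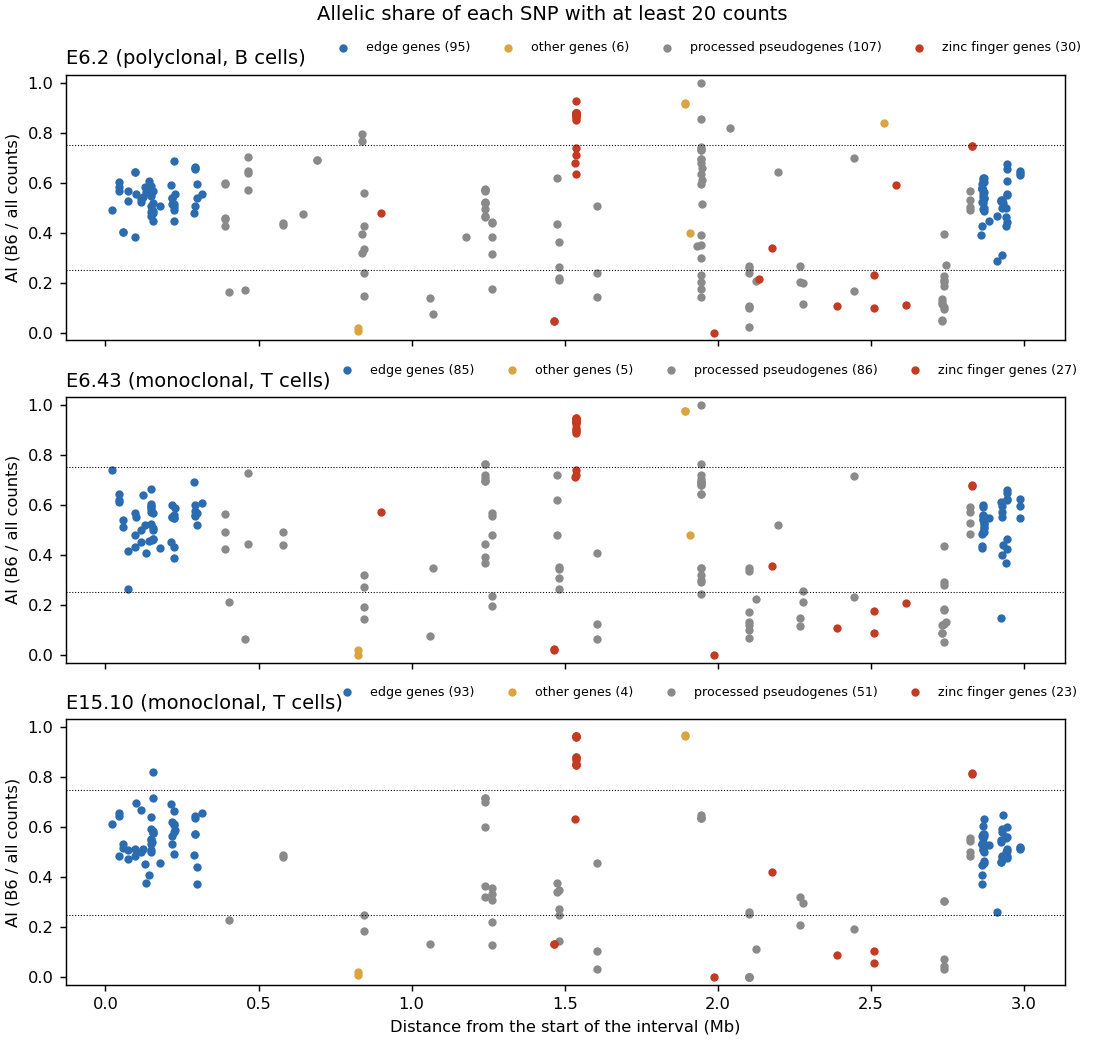
AI of each SNP with at least 20 counts (vertical axis, B6 over all counts) against its distance from the start of the interval in Mb, in 1 panel per library, with points coloured by gene class and dotted lines at 0.25 and 0.75. The edge genes at both ends lie near 0.54 in each library, and the zinc finger genes between them lie mostly under 0.25 or over 0.75.

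Counted by gene, 10 zinc finger genes had at least 10 counts in E6.2, 10 for E6.43 and 9 in E15.10. Under 0.25 lay 5 in each library, whereas 2.31%, 2.48% and 1.63% of all autosomal genes with that many counts were under it, library by library in the same order. Over 0.75 lay 1 gene in E6.2, 1 for E6.43 and 3 in E15.10, against 3%, 3.08% and 3.6% of all autosomal genes. In all libraries at once, 5 of the 9 zinc finger genes measured in each were under 0.25 and 1 was over 0.75, with 0.624% and 1.57% of 21802 autosomal genes on those sides. Each of these 5 genes had at most 2 SNPs with at least 20 counts. Among 318 Zfp genes elsewhere on the autosomes, 0 were under 0.25 and 2 over 0.75 in all libraries. In E6.2 and E6.43 singly, 15 and 16 Zfp genes elsewhere were under 0.25, of which 14 and 14 lie on chromosome 7. In E15.10 there were 3, and 0 of them lie there. The paper reports a large deletion shared by its E6 samples, and whether these genes lie in it was not tested. They are part of the E6 percentages given here for Zfp genes elsewhere and for all autosomal genes.

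Counted by SNP, 30 had 20 counts or more in E6.2, 27 for E6.43 and 23 in E15.10. Under 0.25 lay 8, 7 and 6 of them, against 1.85%, 1.91% and 1.08% of all autosomal SNPs, and over 0.75 lay 13, 13 and 15, against 4.5%, 4.93% and 4.69%. Of the 23 SNPs with enough counts in all libraries, 6 were under 0.25 in each and 13 over 0.75 in each, where 0.371% and 1.51% of autosomal SNPs were. Altogether 70.0% (52.1 to 83.3) of the SNPs in E6.2, 74.1% (55.3 to 86.8) for E6.43 and 91.3% (73.2 to 97.6) in E15.10 lay outside the range from 0.25 to 0.75. In the edge genes this was 0%, 1.18% and 1.08%, and in Zfp genes elsewhere 9.17%, 9.29% and 4.89%. All 13 SNPs over 0.75 in E6.2 belong to Zfp981 and lie within 183 bp, so they rest on shared reads and are not separate measurements. The intervals of the percentages outside the range treat each SNP as separate, so they are too narrow and do not give the spread between genes. With SNPs at least 300 bp apart, E6.2 had 41.7% and E6.43 50.0% outside, both below these intervals, and E15.10 stayed within its interval.

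**Figure D2:**
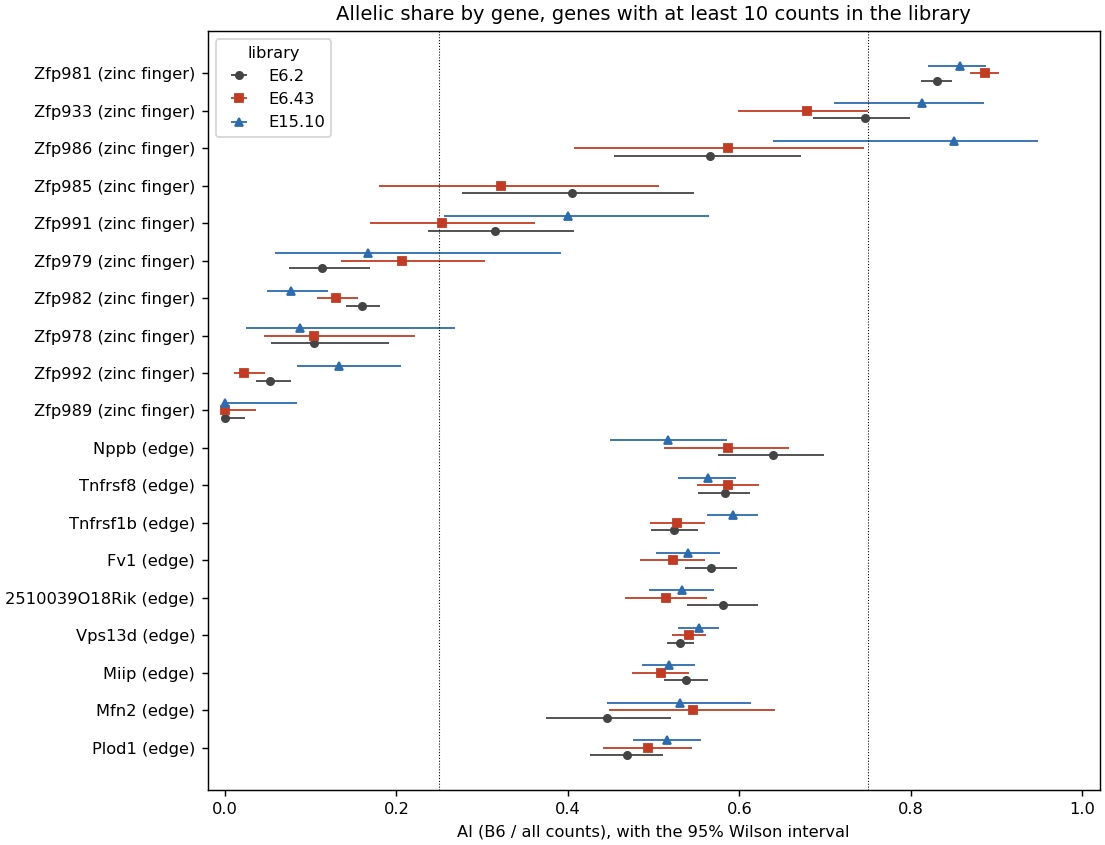
AI of each zinc finger and edge gene (horizontal axis, points by library, bars the 95% Wilson interval) for genes with at least 10 counts in the library, with dotted lines at 0.25 and 0.75. Zfp989, Zfp992, Zfp978, Zfp982 and Zfp979 lie under 0.25 and Zfp981 over 0.75 in all libraries, and the edge genes lie between 0.446 and 0.639.

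Zfp981 was the zinc finger gene with most counts and was rich in B6 counts in each library. It lies at chr4:146502027-146539395, with 7 fingers in a protein of 445 residues. AI was 0.830 (0.812 to 0.847) in E6.2, 0.887 (0.869 to 0.903) for E6.43 and 0.857 (0.820 to 0.887) in E15.10. The E6.43 interval lay above that of E6.2, and E15.10 overlapped both.

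The share was not even along Zfp981. A SNP in the UTR at chr4:146532089 had AI of 0.680 of 241 counts in E6.2, 0.712 of 125 for E6.43 and 0.632 of 57 in E15.10. At codon 17, in the window printed above, AI was 0.739 of 69, 0.739 of 46 and 0.778 of 9 counts. In the next exon, from codon 56 to codon 116, the 13 SNPs ranged from 0.850 to 0.927 in E6.2, 0.887 to 0.946 for E6.43 and 0.846 to 0.964 in E15.10. The UTR SNP thus lay below these 13 SNPs in each library. A further SNP of that exon, at codon 198, had 14 B6 counts of 22 in E6.2, or AI of 0.636, which was below the UTR SNP, and under 10 counts in the other libraries. The UTR window had 5 near copies, and the first 6 SNPs of the exon had none.

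Zfp982 had the opposite share, with its counts held by few SNPs. It lies at chr4:147492417-147513486, encodes 7 fingers and had counts at 3 of its 21 SNPs. AI was 0.160 (0.141 to 0.180) of 1363 counts in E6.2, 0.129 (0.107 to 0.155) of 758 for E6.43 and 0.0769 (0.0486 to 0.120) of 221 in E15.10. The E15.10 interval lay below that of E6.2. Nearly all counts came from a pair of coding SNPs in front of the fingers. At codon 17 the B6 counts were 74 of 743 in E6.2, 36 of 410 for E6.43 and 7 of 126 in E15.10. At codon 39 they were 144 of 620, 61 of 346 and 10 of 95. AI was thus higher at codon 39 than at codon 17 in each library.

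The mean CAST counts of Zfp982 were far above those of single-copy genes in E6.2 and E6.43, and less so in E15.10. Its SNPs with at least 20 counts had a mean of 573 CAST counts in E6.2, 330 for E6.43 and 102 in E15.10, where the coding SNPs of the edge genes had 54.3, 35.8 and 34.0. This made 10.5, 9.20 and 3 times the edge level. The B6 counts were 1.68, 1.15 and 0.198 times the edge level. The largest number of CAST counts at any coding SNP of the edge genes was 111 in E6.2, against 669 at codon 17 of Zfp982. In E15.10 it was 96, against 85 and 119 at these SNPs of Zfp982. These windows had no near copy at 95% identity, and at the lower limit of 90% they had 13 and 9.

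Zfp992 had few B6 counts at both SNPs printed above. AI was 0.0526 (0.0359 to 0.0765) of 475 counts in E6.2, 0.0220 (0.0101 to 0.0471) of 273 for E6.43 and 0.133 (0.0838 to 0.206) of 120 in E15.10, and the E15.10 interval lay above both others. At the first SNP the B6 counts were 12 of 248, 3 of 140 and 8 of 60. CAST counts per SNP were 4.14, 3.71 and 1.53 times those of coding SNPs in the edge genes. Both SNP windows had an identical copy in Zfp991, and its part in these shares was not tested.

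Zfp989 had no B6 count at all. Of 164 counts in E6.2, 102 for E6.43 and 42 in E15.10, 0 were B6, which allows a B6 share of up to 1.83%, 2.94% and 7.14% by a limit of 3 counts over the total, or 2.29%, 3.63% and 8.38% by the Wilson interval. Both limits cover counting error only. The window has an identical copy elsewhere in the cluster, where only Gm26573 is annotated, and whether B6 reads were lost there was not tested. CAST counts at the Zfp989 SNP were 3.02, 2.85 and 1.24 times the edge level. The mean CAST counts at the best covered SNPs of Zfp982, Zfp992 and Zfp989 were thus above the edge mean in each library. The edge mean takes all 72 coding SNPs, also those with few counts, while the zinc finger SNPs needed at least 20. The means are thus not of like sets. In E15.10 edge SNPs reached 96 CAST counts, above the 52 of Zfp992 and the 42 of Zfp989.

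Zfp978 and Zfp979, which share their first 60 residues, were also under 0.25 in each library. Zfp978 had AI of 0.104 of 77 counts in E6.2, 0.104 of 48 for E6.43 and 0.0870 of 23 in E15.10. Zfp979 had 0.114 of 176, 0.207 of 87 and 0.167 of 18. Their intervals overlapped between the libraries. Nearly all counts came from 1 coding SNP in each gene. Over the libraries, codon 197 of Zfp978 held 146 of 148 counts and codon 159 of Zfp979 held 278 of 281. The E15.10 interval of Zfp979, 0.0584 to 0.392, reached above 0.25.

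The other genes with counts lay nearer to the balance or had wide intervals. Zfp991, just above the lower limit, had AI of 0.315 (0.236 to 0.407) in E6.2, 0.253 (0.169 to 0.362) for E6.43 and 0.400 (0.256 to 0.564) in E15.10. Zfp985 had 0.404 of 47 counts in E6.2 and 0.321 of 28 for E6.43, and no count in E15.10. Zfp986 had 0.566 of 76, 0.586 of 29 and 0.850 of 20, with an E15.10 interval of 0.640 to 0.948 that overlapped both others.

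Zfp933, next to the right edge, lay around the upper limit. AI was 0.747 (0.685 to 0.799) of 221 counts in E6.2, 0.678 (0.598 to 0.749) of 143 for E6.43 and 0.813 (0.711 to 0.885) of 75 in E15.10. None of its 46 SNPs had a near copy, and 44 of them had no count in any library. Its 2 SNPs with counts lie 28 bases apart and gave nearly the same shares, 0.748 and 0.745 in E6.2. B6 counts there were 1.27, 1.15 and 0.712 times the edge level and CAST counts 0.516, 0.642 and 0.206 times.

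Of the remaining zinc finger genes, Rex2 had 10 counts over all libraries and Zfp984 had 8. Zfp600 and Zfp988 had 2 counts each and Zfp534 had 1. Zfp990, Gm13212, Zfp980 and Zfp987 had none, with 1 or 2 listed SNPs each. No share is given for these genes.

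A pair of genes outside the zinc finger class was named after their values were seen. The pseudogene Znf41-ps had AI of 0.0126 of 477 counts in E6.2, 0.0104 of 289 for E6.43 and 0.0154 of 195 in E15.10. Gm21411, which encodes a KRAB box but no finger, had 0.862 of 383, 0.926 of 256 and 0.882 of 68. The sum of Gm21411 rests on 2 neighbouring coding SNPs, with AI of 0.917 and 0.914 in E6.2. Its UTR SNP at chr4:146907558 was not rich in B6 counts, with 0.400 of 40, 0.480 of 25 and 0.333 of 9. Both genes had near copies at all 3 of their SNPs. The windows of the 2 Znf41-ps SNPs with counts had 3 and 2 identical copies.

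The counts of the zinc finger genes came almost wholly from the part of the coding sequence in front of the fingers. Of 34 coding SNPs before the first finger, 30 had at least 20 counts over the libraries, 1 had none, and the mean was 226 counts per SNP. Of 42 coding SNPs from the first finger on, 0 reached 20 counts, 36 had no count in any library and the mean was 0.667. Within the fingers themselves there were 30 SNPs with 28 counts together.

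Zfp genes elsewhere had a similar mean before the fingers and more counts from the first finger on. The median before the fingers was 157.5 counts in the interval and 209 in Zfp genes elsewhere. The 1009 coding SNPs of Zfp genes elsewhere before the first finger had a mean of 224 counts, and 92.2% reached 20 counts, against 88.2% in the interval. From the first finger on, 1452 SNPs had a mean of 112 counts, and 53.5% reached 20. In the interval 39 of the 42 SNPs from the first finger on had a near copy, and 20 of the 34 before it. The shares given above for coding SNPs of zinc finger genes thus rest on the KRAB box and the region between it and the fingers, and hardly on the fingers.

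**Figure D3:**
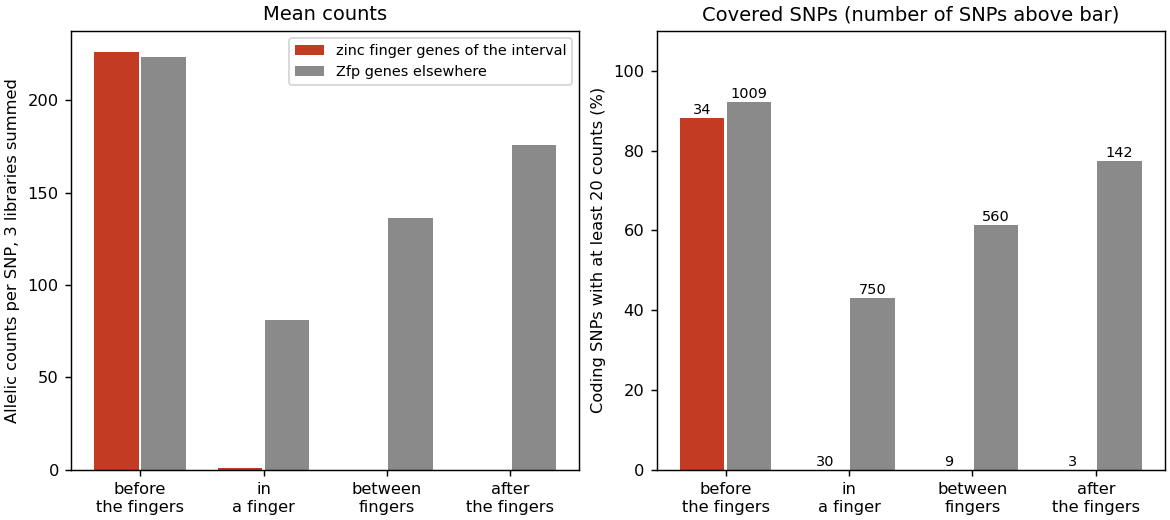
Coding SNPs of the zinc finger genes of the interval (red) and of Zfp genes elsewhere on the autosomes (grey) by place in the protein. The left panel gives allelic counts per SNP summed over the libraries, with means of 226 and 224 before the fingers, and the right panel the percentage of SNPs with at least 20 counts, with the number of SNPs above each bar; no bar is visible in the interval where the value is 0.

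Over the whole class, depth was below that of the edge genes. The zinc finger genes had a mean of 24.04 counts per SNP in E6.2, 15.5 for E6.43 and 5.26 in E15.10, where the edge genes had 46.3, 29.9 and 31.1. The ratio was 0.519, 0.518 and 0.169. Of the 184 SNPs, 128 had no count in any library, or 69.6%, against 89 of 220, or 40.5%, in the edge genes. At coding SNPs alone the zinc finger genes had 54.2, 35.4 and 11.9 counts per SNP, and the edge genes 119, 77.9 and 76.9.

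GC content differed between the classes, and depth in E15.10 varied with it outside the cluster. Median GC of the 151-base windows was 36.4% in the zinc finger genes and 51.7% in the edge genes. On the rest of chromosome 4, over SNPs with at least 20 counts, E15.10 had 0.283 times the counts of E6.2 where GC was under 40% and 0.751 times where it was 50% or more. In zinc finger windows E15.10 had 0.246 times the counts of E6.2 under 40% GC and 0.170 times from 40 to 50%. At 18 SNPs of 50% or more E15.10 had no count, where E6.2 had a mean of 0.667. Most zinc finger SNPs had no count in any library, so these values rest on few SNPs and do not give a trend with GC. Among the 32 SNPs from 40 to 50%, that of Zfp989 alone had 164 counts in E6.2 and 42 in E15.10. The part of GC content in the allelic shares was not tested.

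Near copies were common in the cluster and absent from its edges. Of the zinc finger SNPs, 117 of 184 windows, or 63.6%, had a near copy, each of them with at least 1 copy inside the interval, and 39 had an identical copy. Of the 220 edge windows 0 had one, and on the rest of chromosome 4 it was 10.9% of SNPs with at least 20 counts. In 65 of the 117 zinc finger windows at least 1 near copy carries another base at the SNP. Shares outside the range from 0.25 to 0.75 were found with and without near copies. Without one, 66.7% of the covered SNPs were outside in E6.2, 66.7% for E6.43 and 100% in E15.10, and with one, 72.2%, 80.0% and 84.6%. Those without a near copy were 12, 12 and 10 SNPs, all of Zfp981, Zfp982, and Zfp933. On the rest of chromosome 4, 5.30% of SNPs without and 17.6% with a near copy were outside in E6.2. The part of near copies in the shares was not tested.

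The same SNPs had similar shares in the different animals. Over zinc finger SNPs with at least 20 counts in both libraries, Pearson's r was 0.992 between E6.2 and E6.43 (27 SNPs), 0.987 between E6.2 and E15.10 (23 SNPs) and 0.984 between E6.43 and E15.10 (23 SNPs). These values are descriptions, since SNPs of a gene share reads and the class was chosen for its spread. The median difference of a SNP between E6.2 and E15.10 was 0.0440 and the largest 0.127. No SNP was under 0.25 in one library and over 0.75 in another. In the edge genes, where shares varied little, r was -0.00 between E6.2 and E6.43, -0.04 between E6.2 and E15.10 and 0.18 between E6.43 and E15.10.

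**Figure D4:**
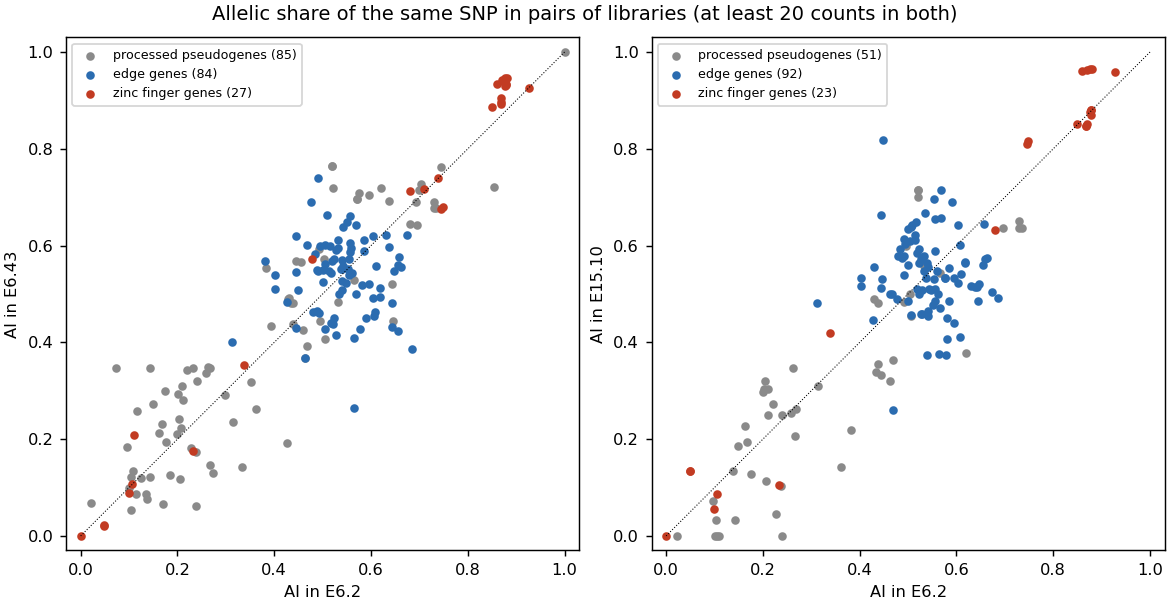
AI of the same SNP in E6.2 (horizontal axis) and in E6.43 or E15.10 (vertical axis), for SNPs with at least 20 counts in both libraries, by gene class, with a dotted line where both are equal. Zinc finger SNPs spread along the line from 0 to over 0.9, with r of 0.992 and 0.987, and edge gene SNPs form a single cloud around 0.54.

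At the level of genes, intervals that did not overlap between libraries were about as frequent as over all autosomal genes. Of the 9 zinc finger genes measured in all libraries, 3 had intervals that did not overlap between at least 1 pair of libraries, namely Zfp981, Zfp992 and Zfp982. Among all autosomal genes this share was 31.9%, and in the edge genes it was 1 of 9. Non-overlaps given above for single genes are thus not particular to the cluster.

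The cluster also holds processed pseudogenes, which are reverse-transcribed copies of messenger RNAs from elsewhere in the genome. Compared with coding transcripts, 32 of the 35 fell into 7 families of at least 2 copies. Nearest to Cdv3 were 9 pseudogenes, to the chromatin remodeller Smarca5 6, to the ribosomal protein gene Rplp1 5, to the chromatin protein gene Hmgb1 4, to the kinase gene Tlk2 4, to Pdlim5 2 and to the phosphatase subunit gene Ppp2r5a 2. Copies of Cdv3, Smarca5, Rplp1 and Hmgb1 returned several times along the interval between the zinc finger genes.

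The processed pseudogenes leaned towards CAST. AI was 0.368 (0.358 to 0.378) of 8561 counts in E6.2, 0.373 (0.360 to 0.385) of 5665 for E6.43 and 0.337 (0.320 to 0.354) of 2971 in E15.10, while autosomal processed pseudogenes elsewhere had 0.531, 0.530 and 0.535. Under 0.25 lay 11 of 32 genes with at least 10 counts in E6.2, 11 of 31 for E6.43 and 14 of 28 in E15.10, and 1 was over 0.75 in each library. Of autosomal processed pseudogenes elsewhere, 94 of 1981, 101 of 1902 and 89 of 1772 were under 0.25 in the same order, beside the 2.31%, 2.48% and 1.63% of all autosomal genes. In all libraries 6 of 28 were under 0.25, with 17 of 1738 pseudogenes elsewhere and 0.624% of all autosomal genes. Unlike the zinc finger genes, they were covered nearly throughout, with 5 of 186 SNPs at 0 in all libraries, though 152 of 186 windows had a near copy.

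Copies of one gene differed in share. Among the Smarca5 copies, Gm13140 had AI of 0.557 of 797 counts in E6.2, 0.564 of 539 for E6.43 and 0.579 of 280 in E15.10, while Gm13136 had 0.188 of 640, 0.211 of 422 and 0.163 of 172. Of the Ppp2r5a copies, Gm13169 had 0.511, 0.567 and 0.544 and Gm13142 had 0.256, 0.293 and 0.192. All 4 Tlk2 copies were below the balance, between 0.207 and 0.361 in E6.2, and the family had AI of 0.295, 0.324 and 0.241. Rps19-ps3, a copy of a ribosomal protein gene near the right end of the cluster, was balanced at 0.530 of 705 counts, 0.534 of 457 and 0.532 of 201. By gene sums, the balanced and the CAST-rich copies were thus the same genes in the 3 libraries for these pairs. The sum of Gm13140 covers uneven SNPs. Of its 18 SNPs with at least 20 counts in E6.2, 4 were under 0.25 and 2 over 0.75, with AI from 0.143 to 1. Of the 28 pseudogenes measured in all libraries, 7 had intervals that did not overlap between at least 1 pair of libraries, beside 31.9% of all autosomal genes. Among these 7, Gm13149 had AI of 0.607 of 107 counts in E6.2, 0.368 of 57 for E6.43 and 0.154 of 13 in E15.10. Gm20760 had 0.515 of 97, 0.383 of 60 and 0.111 of 45. Copies outside the pairs above thus did not all keep their share.

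**Figure D5:**
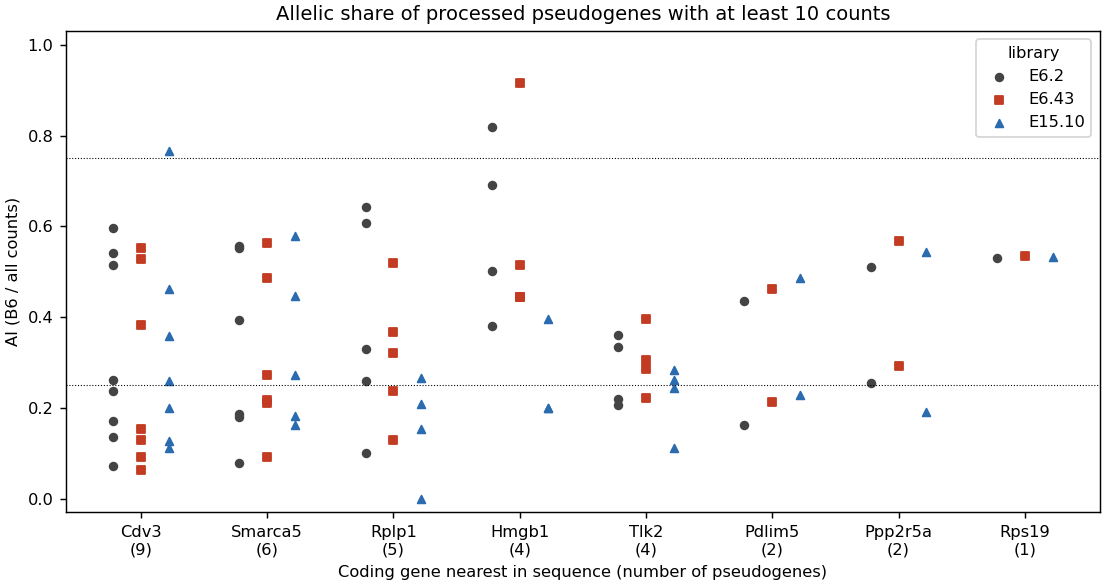
AI of processed pseudogenes with at least 10 counts in the library (vertical axis), grouped by the coding gene nearest in sequence with the number of pseudogenes in brackets, with points by library and dotted lines at 0.25 and 0.75. Copies of one gene spread widely, from 0.0714 to 0.597 for Cdv3 and from 0.101 to 0.643 for Rplp1 in E6.2 and from 0.111 to 0.767 and from 0 to 0.267 in E15.10, and the single copy of Rps19 lies at 0.530, 0.534 and 0.532.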

How the data were processed

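The data are 3 exome libraries, each from 1 recipient. For each library the authors deposited counts of the B6 and the CAST allele per gene, with the number, positions and counts of its SNPs (fields of another kind, lists in text), made with their allele counting pipeline. Gene counts equalled the sums of the SNP counts in all genes. The paper states STAR alignment to both parental genomes, unique reads and SAMtools allele counts for the RNA reads; for the exome reads it names the same ASEReadCounter* pipeline and limits on gene counts and AI, and gives no aligner settings of their own. Reads lost or placed wrongly among similar genes would change both depth and AI, and alignment in favour of the reference would raise AI. STAR 2.5.4a and cutadapt 1.14 are named in the submitters' processing notes. A deposited table of the whole series, with totals, the fraction AI, its interval, a p-value and calls for genes with at least 90 counts, was not used. Columns of no library numbered 0.

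The members and lists were chosen with earlier results of these data known. AI was computed as B6 over total counts, over genes with at least 10 and SNPs with at least 20 counts. Zinc finger genes had a symbol that starts with Zfp or at least 3 C2H2 fingers with canonical spacing, edge genes were a fixed list, and proteins were translated from GENCODE M21 and GRCm38.p6, since no protein table was given. Of 30212 gene identifiers 29309 matched. Named were the zinc finger genes with most counts, those with the lowest and highest AI, those nearest the limits, every edge gene, and the 5 SNPs with most counts. Windows of 151 bases were searched against the primary assembly with BLAST+ 2.17.0, and pseudogenes were compared with coding transcripts. No test was made, since each group is 1 library; summaries were tested on simulated data. Alternatives were other count minimums, SNPs at least 300 bp apart, other limits and other means.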

Additional observations from a re-analysis of the deposited data

How the results depend on the processing

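The sum over the zinc finger genes depended on how genes and SNPs were weighted, and the values below are in the order E6.2, E6.43 and E15.10. Against AI of 0.441, 0.501 and 0.499, the median SNP was 0.742, 0.739 and 0.846, on the other side of the balance in E6.2. SNPs at least 300 bp apart gave 0.277, 0.276 and 0.319, the mean of genes 0.329, 0.319 and 0.376, and SNPs without a near copy 0.402 and 0.438 in E6.2 and E6.43. Leaving out Zfp981 gave 0.198, 0.176 and 0.234, leaving out Zfp982 as well gave 0.237, 0.222 and 0.337, and adding Znf41-ps and Gm21411 gave 0.444 in E15.10; these 3 alternatives and the coding SNPs below were chosen after seeing the data. The range from 0.1 to 0.9 left 16.7%, 51.9% and 34.8% of SNPs outside, and SNPs at least 300 bp apart left 41.7% and 50.0% in E6.2 and E6.43. Counts per SNP relative to the edge genes were 0 in each library by the median, 1.30, 1.30 and 0.428 over SNPs with a count in every library and 0.454, 0.454 and 0.155 over coding SNPs. Against all autosomal SNPs they were 0.557 in E6.2 and 0.217 in E15.10. In E15.10 the number of genes outside the limits fell from 8 to 4 with at least 50 counts and to 3 with at least 90, by construction since fewer genes were left. The cause of the other changes was not tested. The remaining 24 values stayed within the counting interval or within 1.5 times of the count.

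No paired analysis was possible because the groups hold 1 library each. Depth limits E15.10 most, with 968 counts over the zinc finger genes, and in all libraries the fingers had too few counts for a share.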
